A study of Mus musculus with 6 samples.

Results

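A set of receptors that restrain macrophages and other myeloid cells was followed in mouse bone marrow-derived macrophages: the paired immunoglobulin-like receptor Pirb, Lilrb4a, Cd300a, Cd300lf, the C-type lectin receptor Clec12a, the sialic acid receptors Siglece, Siglec1 and Cd33, the CD47 receptor Sirpa, and the CD200 receptor Cd200r1. The rule takes them by gene symbol and uses no measured value, although the set was named with earlier results of these data known. The 10 symbols matched 11 of the 55335 entries of the gene count table. The additional entry also carries the symbol Lilrb4a but is another gene model, Gm49339, and is given under that name. All 11 entries passed the filter on low counts, which kept 13901 genes.

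Macrophages were grown from bone marrow in high-glucose DMEM with recombinant mouse M-CSF (20 ng/mL), fetal bovine serum (10%) and Penicillin-Streptomycin (1%). M-CSF is the growth factor that drives marrow cells to become macrophages. On day 5 all cultures received PAC-CM, medium conditioned by injured pancreatic acinar cells, the enzyme-secreting cells of the pancreas. The PAC-CM group (3 libraries) received it alone, and the PAC-CM-KD group (3 libraries) received it with 400 µM kinsenoside (KD), a plant glycoside. The comparison asks how kinsenoside alters macrophages in a culture setting for acute pancreatitis. Macrophages without conditioned medium are not among the samples, so all values concern the difference made by kinsenoside on top of PAC-CM. The genotype, strain, sex and age of the mice are not given in the labels, nor is the time from addition of the medium to RNA extraction. Whether replicates were separate animals or cultures is not said in the labels, and the p-values therefore measure only the spread of these libraries, which may be technical.

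Receptors of this kind carry an extracellular part that binds a ligand on neighbouring or dying cells, and many carry a cytoplasmic tail with tyrosine motifs called ITIMs. When a Src-family kinase phosphorylates these motifs, the tail recruits the phosphatases SHP-1, SHP-2 or SHIP-1 (Ptpn6, Ptpn11 and Inpp5d), which dampen signals from activating receptors that work through the adaptors Tyrobp and Fcer1g and the kinase Syk. Several of these inhibitory receptors lie in gene clusters beside closely related activating receptors. The group is not uniform: CD200R1 recruits Dok adaptors through another tail motif, and sialoadhesin, the product of Siglec1, has a short tail without an ITIM and acts mainly in adhesion.

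Depth was similar across libraries, at 41125059 to 47461702 counts, and the 11 entries held between 0.404% and 0.455% of each library's counts. Defining macrophage transcripts were present in every library, where the summed level of 10 markers, among them Csf1r, Adgre1 and Cd68, was between 21120 and 23191 CPM in PAC-CM and between 23035 and 25849 CPM in PAC-CM-KD, and the part of this in the receptor values was not tested. A CPM value is a count over the library total, scaled to a common size. Lyz2 was the highest of the 10 macrophage markers, with means of 11811 CPM in PAC-CM and 13371 CPM in PAC-CM-KD. In the same order the means were 1305 and 1231 CPM for Csf1r, 1463 and 1470 CPM for Adgre1, and 1988 and 2002 CPM for Cd68. Markers of other cells were low: 10 neutrophil markers summed to at most 43.0 CPM, with Elane and Retnlg at 0, 8 T or NK cell markers to at most 16.8 CPM, with Cd3d and Ncr1 at 0, and 8 dendritic cell markers to at most 9.48 CPM. The 5 B cell, 6 mast cell or basophil, 6 erythroid and 6 fibroblast markers each summed to at most 2.58 CPM, and 10 pancreatic acinar markers to at most 7.69 CPM. No tested gene of these marker lists passed the threshold of an adjusted p of 0.05 in edgeR. On the second principal component of all tested genes, kinsenoside replicate 1 stood apart at -39.3, and values without that library are given with Siglec1, Cd33, Gm49339, Socs3 and Cish.

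None of the 11 entries passed that threshold in edgeR's quasi-likelihood test, where 0.511% of the 13901 tested genes did, 0.209% with higher and 0.302% with lower values under kinsenoside. DESeq2, run with its own filter, called 2 of them, Cd300lf and Siglece, and 3.8% of the 11606 genes to which it gave an adjusted p. Limited to the genes of the edgeR filter, an alternative chosen after seeing the data, it called the same 2 and 3.6% of 13625 genes. In limma-voom 0 of the 11 and 0.281% of all tested genes passed. At an unadjusted p under 0.05 the edgeR test had 3 of the 11, against 14.9% of all tested genes: Cd300lf and Cd300a with higher means under kinsenoside (6.74% of tested genes in that direction), and Siglece with a lower mean (8.19%). The fitted log2 fold change was above 0 for 6 entries and below 0 for 5, with a median of 0.0048, beside a median of -0.0056 over all tested genes. In CPM the groups did not overlap for Cd300lf (higher, as for 6.86% of tested genes) and Siglece (lower, as for 15.7%), against 22.5% in either direction. After scaling with edgeR's TMM factors Cd300a joined them, against 21.8% of tested genes, 10.4% higher and 11.4% lower. The largest difference among the members was a log2 fold change of -0.58. Since the RNA is from whole cultures, fewer cells that express a receptor and less of its RNA per cell cannot be told apart.

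**Figure D1:**
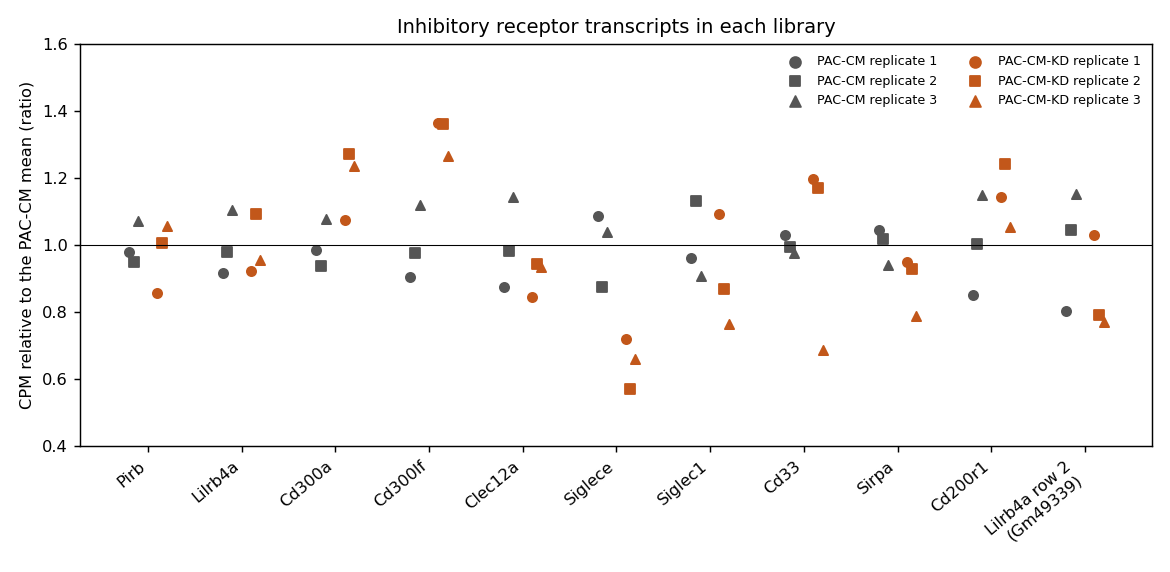
CPM of each entry in each library divided by the mean of the 3 PAC-CM libraries (vertical axis, ratio; grey PAC-CM, orange PAC-CM-KD, marker shape by replicate number). The orange points of Cd300lf lie above and those of Siglece below all grey points, while Cd33 has 1 low kinsenoside library.

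Levels between genes can be compared only per length, and RPKM here is CPM divided by the length in kilobases of the gene's longest protein-coding transcript. Over the 6 libraries Lilrb4a was highest, with a mean of 607 ± 50.9 RPKM (SD). It was followed by Cd300lf at 278 ± 47 RPKM and Gm49339 at 275 ± 48.2 RPKM, whose ranges overlapped each other. Sirpa at 200 ± 18.9 RPKM and Pirb at 197 ± 15.8 RPKM overlapped as well, and Siglec1 at 94.9 ± 13.8 RPKM stood between these and the next. Below lay Cd200r1 at 59.6 ± 7.65 and Clec12a at 55.8 ± 6.21 RPKM, which overlapped, then Cd300a at 15.9 ± 1.92 and Cd33 at 12.2 ± 2.22 RPKM, which overlapped too. Siglece was the lowest, at 3.32 ± 0.844 RPKM. The 6 libraries of each of Lilrb4a, Gm49339, Pirb, Siglec1, Clec12a and Cd33 lay above all those of the next gene in this order. The lengths are those of 1 transcript per gene, 5728 bases for Cd33 and 1381 bases for Lilrb4a, so the order depends on which transcript these cells make.

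**Figure D2:**
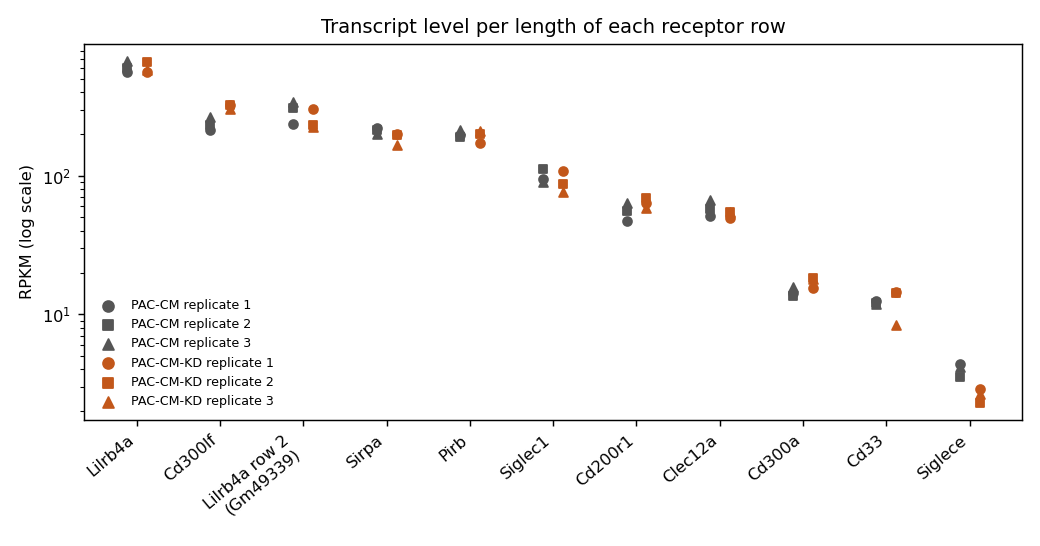
RPKM of each entry in each library on a log axis, ordered by the mean over 6 libraries (grey PAC-CM, orange PAC-CM-KD, marker shape by replicate number). Lilrb4a stands at the top near 607 and Siglece at the bottom near 3.32 RPKM.

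The CD300 receptors bind lipids such as phosphatidylserine that are exposed on dying cells, and both inhibitory members, Cd300lf and Cd300a, carry ITIM tails. Cd300lf (ENSMUSG00000047798, GRCm38 chr11:115116214-115133992, minus strand) was at 406, 440 and 504 CPM in PAC-CM replicates 1 to 3 and at 614, 612 and 569 CPM with kinsenoside. All 3 kinsenoside libraries lay above all 3 PAC-CM libraries. The mean went from 450 ± 49.8 to 598 ± 25.4 CPM (SD, n = 3 per group), a ratio of 1.33, and the fitted log2 fold change was 0.45 (SE 0.0858, unadjusted 95% interval 0.26 to 0.65). Its adjusted p in edgeR was 0.0716, above the threshold. DESeq2 gave it an adjusted p of 0.000680 (0.000860 on the genes of the edgeR filter) and edgeR without the low-count filter 0.0480. When each library was left out in turn the log2 fold change lay between 0.39 and 0.55, with adjusted p between 0.0701 and 0.256 in edgeR. The gene Rab37 spans the same place on the opposite strand, but shares 0 exon bases with Cd300lf in GENCODE M21.

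Cd300a (ENSMUSG00000034652, GRCm38 chr11:114890041-114904654, plus strand) was at 66.3, 63.1 and 72.5 CPM in PAC-CM and at 72.3, 85.5 and 83.1 CPM with kinsenoside. The groups touched, since the lowest kinsenoside library lay just under the highest PAC-CM library. The log2 fold change was 0.30 (SE 0.0862, interval 0.10 to 0.50), with an adjusted p of 0.171 in edgeR. Without 1 library the adjusted p lay between 0.0949 and 0.439.

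Cd300lf and Cd300a lie at the 2 ends of the 10 CD300 genes tested on chromosome 11, with their relatives between them. Cd300c2 was at 192, 202 and 184 CPM in PAC-CM and at 163, 158 and 173 CPM with kinsenoside, all kinsenoside libraries lower, with a log2 fold change of -0.19 (SE 0.0678) and an adjusted p of 0.257 in edgeR. Cd300e, an activating receptor that signals through Tyrobp, was at 4.23, 3.96 and 3.58 CPM and at 1.63, 2.73 and 2.50 CPM, again without overlap, with a log2 fold change of -0.73 (SE 0.207) and an adjusted p of 0.164. Cd300lb, which also signals through Tyrobp, had a log2 fold change of -0.13 (adjusted p 0.697) and Cd300ld one of -0.0011 (adjusted p 0.997) in the same edgeR fit. For Cd300ld3, Cd300ld4 and Cd300ld5, which share between 78.7% and 100% of their 150-base windows with another gene, the division of reads between them is uncertain. Cd300lf and Cd300a share 0% of theirs.

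Within a library, the ratio of an inhibitory to an activating neighbour does not depend on library scaling. The log2 ratio of Cd300lf to Cd300c2 was 1.08, 1.12 and 1.45 in PAC-CM and 1.92, 1.96 and 1.72 with kinsenoside. All kinsenoside libraries had the higher ratio, by 0.65 on average, and the two-sided exact permutation p was 0.10, the smallest that 3 against 3 libraries allow. The ratio of Cd300lf to Cd300e differed by 1.22 and that of Cd300a to Cd300lb by 0.44 on the log2 scale, also without overlap between groups and with an exact permutation p of 0.10. Adjusted over the 8 ratios computed, each of these p-values was 0.20. The pairs were chosen with earlier results of these data known. Cd300lf was higher and Cd300c2 and Cd300e were lower in all kinsenoside libraries. The separation and p of the Cd300lf ratios follow from this and give no separate support. Summed over the CD300 genes the level was 864, 899 and 955 CPM in PAC-CM and at 1021, 1036 and 1021 CPM with kinsenoside. Cd300lf made up 49.7% of the summed mean CPM in PAC-CM and 58.3% with kinsenoside. This is a share of counts that is not corrected for gene length.

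**Figure D3:**
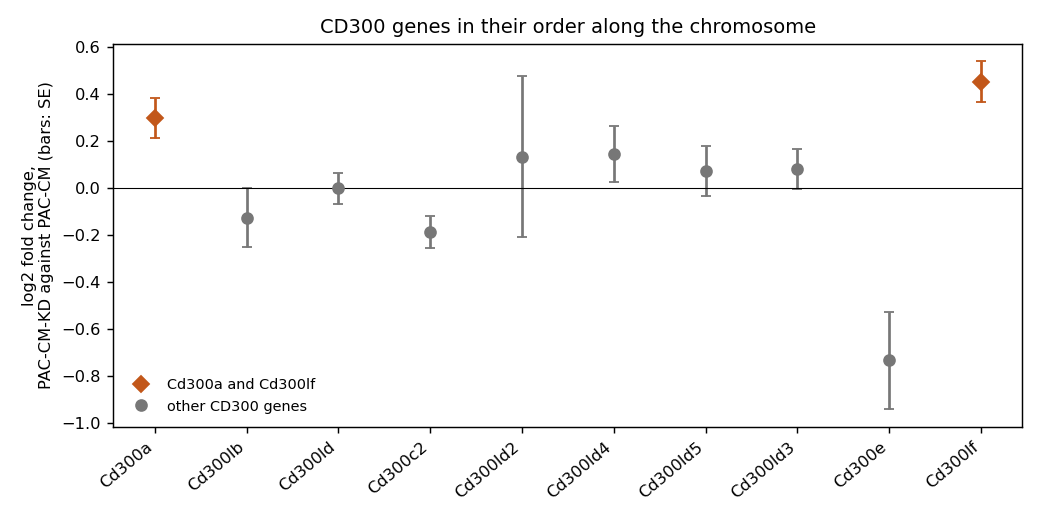
Log2 fold change of each CD300 gene, kinsenoside against PAC-CM, in chromosomal order (bars are SE; orange diamonds Cd300a and Cd300lf, grey points other CD300 genes). The values run from -0.73 for Cd300e to 0.45 for Cd300lf, and none of the 10 passed the threshold.

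Siglec-E, Siglec-1 and CD33 bind sialic acids, the sugars that cap glycans on the surface of the body's own cells, and Siglec-E carries ITIMs. Siglece (ENSMUSG00000030474, GRCm38 chr7:43651070-43660161, minus strand) had 348, 309 and 341 counts in PAC-CM and 232, 179 and 202 counts with kinsenoside, or 8.08, 6.51 and 7.73 against 5.34, 4.24 and 4.91 CPM. All kinsenoside libraries were lower. The means were 7.44 ± 0.825 and 4.83 ± 0.554 CPM (SD, n = 3 per group), a ratio of 0.649, and the log2 fold change was -0.58 (SE 0.140, interval -0.90 to -0.26) with an adjusted p of 0.124 in edgeR. DESeq2 gave an adjusted p of 0.0415 (0.0310 on the genes of the edgeR filter). Without 1 library the log2 fold change lay between -0.66 and -0.49 and the edgeR adjusted p between 0.11 and 0.351.

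Cd33 (ENSMUSG00000004609, GRCm38 chr7:43524216-43544428, minus strand) was at 71.5, 69.0 and 67.7 CPM in PAC-CM and at 83.1, 81.2 and 47.5 CPM with kinsenoside. Kinsenoside replicates 1 and 2 lay above all PAC-CM libraries and replicate 3 below them. The log2 fold change was 0.07 (SE 0.207), with an adjusted p of 0.921 in edgeR, and this SE was the largest among the 11 entries. Without kinsenoside replicate 3 the log2 fold change was 0.28 (SE 0.0664, adjusted p 0.160), and without kinsenoside replicate 1 it was -0.07.

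Siglec1 (ENSMUSG00000027322, GRCm38 chr2:131069220-131086765, minus strand) was at 610, 719 and 576 CPM in PAC-CM and at 695, 552 and 485 CPM with kinsenoside. The groups overlapped, with kinsenoside replicate 1 the highest of its group. The log2 fold change was -0.09 (SE 0.142, adjusted p 0.813 in edgeR), and it was -0.25 without kinsenoside replicate 1. The log2 ratio of Siglece to Cd33 differed by -0.60 between groups, with an exact permutation p of 0.20 (0.32 adjusted over the 8 ratios).

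The 3 members with an unadjusted p under 0.05 are shown with the 250 bases before their transcription start, since promoters of myeloid genes often hold sites of the lineage factor PU.1 (Spi1). The sequences are from RefSeq (GRCm38.p6), which matched 6 of the 10 members, and are written 5′ to 3′ on the gene's strand. Capitals mark AGGAAG, a core letter sequence of PU.1 sites, or its reverse complement CTTCCT. The intervals are chr11:115133993-115134242 (minus strand) for Cd300lf, chr11:114889791-114890040 (plus strand) for Cd300a and chr7:43660162-43660411 (minus strand) for Siglece.
Cd300lf: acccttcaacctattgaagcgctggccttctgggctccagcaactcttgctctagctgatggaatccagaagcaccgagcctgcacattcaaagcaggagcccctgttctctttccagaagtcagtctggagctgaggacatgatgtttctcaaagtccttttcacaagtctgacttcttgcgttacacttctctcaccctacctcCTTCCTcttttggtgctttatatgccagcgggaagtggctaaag
Cd300a: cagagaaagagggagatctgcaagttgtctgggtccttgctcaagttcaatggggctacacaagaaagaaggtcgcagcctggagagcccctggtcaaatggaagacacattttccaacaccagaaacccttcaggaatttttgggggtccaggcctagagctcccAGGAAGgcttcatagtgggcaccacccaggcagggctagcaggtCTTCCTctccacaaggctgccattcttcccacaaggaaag
Siglece: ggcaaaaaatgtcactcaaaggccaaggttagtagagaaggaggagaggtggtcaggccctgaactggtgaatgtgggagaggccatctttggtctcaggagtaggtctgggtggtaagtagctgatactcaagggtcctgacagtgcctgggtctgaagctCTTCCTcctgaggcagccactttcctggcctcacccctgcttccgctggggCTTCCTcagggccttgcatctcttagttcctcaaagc
The 6 letters occurred at 1 place in the Cd300lf window and at 2 places in each of the Cd300a and Siglece windows. They were also present in the windows of Pirb, Clec12a and Cd33, so in 6 of 6 matched members, against 29.5% of the 32851 mouse promoter windows of the same length. The windows of Clec12a (chr6:129349994-129350243) and Cd33 (chr7:43533172-43533421) lie inside the GENCODE M21 span of these genes. They precede an internal RefSeq start and not the outer start of that span. The cytokine- and interferon-type motifs, TTCNNNGAA (GAS) and GAAA, any 2 bases and GAAA (ISRE), searched on both strands, were in 0 of the 6 windows, against 7.02% and 2.98% of all windows. A match is a description of letters. Spi1 itself was at 364 ± 15.4 CPM in PAC-CM and at 358 ± 32.8 CPM with kinsenoside (SD, n = 3 per group), with a log2 fold change of 0.02 and an adjusted p of 0.942 in edgeR.

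Pirb and the LILRB4 genes belong to the immunoglobulin-like receptor families, and PIR-B binds MHC class I molecules. Pirb (ENSMUSG00000058818, GRCm38 chr7:3711409-3720391, minus strand) was at 750, 726 and 819 CPM in PAC-CM and at 654, 769 and 809 CPM with kinsenoside. The groups overlapped, with kinsenoside replicate 1 the lowest and PAC-CM replicate 3 the highest library. The log2 fold change was 0.0048 (SE 0.0905, adjusted p 0.990 in edgeR), and its unadjusted 95% interval ran from -0.20 to 0.21. Its activating partner Pira2, which shares 95.4% of aligned coding bases with Pirb, was at 121 ± 7.08 CPM in PAC-CM and at 122 ± 2.42 CPM with kinsenoside (SD, n = 3 per group). The log2 ratio of Pirb to Pira2 differed by -0.07, with an exact permutation p of 0.60.

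Of the 150-base windows of Pirb, 13.4% also occur in another gene, so some of its reads could be counted for a relative. For Pira2 the share was 75.8%, so the division of reads behind its values and the ratio of Pirb to Pira2 is uncertain. With the 8 models of the paired receptor cluster on chromosome 7 summed, the level was 974, 947 and 1066 CPM in PAC-CM and at 888, 1007 and 1057 CPM with kinsenoside, with a log2 fold change of 0.03 (adjusted p 0.918 in edgeR). One model of this cluster passed the threshold and is named after its values were seen: Gm15925, a pseudogene in GENCODE M21. It had 5, 3 and 7 counts in PAC-CM and 188, 204 and 247 counts with kinsenoside, with an adjusted p of 0.000286 in edgeR. Of its windows 15.5% occur in another gene, and 11.3% of its windows occur in Pirb. The sources used here do not give how its reads were divided from those of its neighbours.

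Lilrb4a (ENSMUSG00000112148, GRCm38 chr10:51490956-51496611, plus strand) encodes the ITIM receptor gp49B. It was at 773, 824 and 930 CPM in PAC-CM and at 776, 920 and 805 CPM with kinsenoside. The groups overlapped, with a log2 fold change of 0.03 (standard error 0.0908, adjusted p 0.922 in edgeR) and a fold interval of 0.884 to 1.18. Its neighbour Lilr4b, whose product gp49A has no ITIM, was at 690 ± 44.4 CPM in PAC-CM and at 728 ± 41.5 CPM with kinsenoside (SD, n = 3 per group), with a log2 fold change of 0.12 and an adjusted p of 0.473 in edgeR. The coding sequences of Lilrb4a and Lilr4b are identical at 96.0% of aligned bases. Their first 120 coding bases, from GENCODE M21, show how closely they match. Capitals mark the 2 positions that differ.
Lilrb4a: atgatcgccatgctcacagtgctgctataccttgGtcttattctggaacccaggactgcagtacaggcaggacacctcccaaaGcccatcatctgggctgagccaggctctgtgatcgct
Lilr4b: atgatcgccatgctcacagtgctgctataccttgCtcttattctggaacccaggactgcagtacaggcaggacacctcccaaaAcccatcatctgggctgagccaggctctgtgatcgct
Gm49339 (ENSMUSG00000062593, GRCm38 chr10:51480612-51496613, plus strand) is a model that runs from Lilr4b into Lilrb4a, with 92.8% of its exon bases inside Lilrb4a exons. It was at 342, 443 and 490 CPM in PAC-CM and at 437, 336 and 327 CPM with kinsenoside. PAC-CM replicate 1 was low and kinsenoside replicate 1 high within their groups, so that the groups overlapped, with a log2 fold change of -0.17 (standard error 0.166, adjusted p 0.698 in edgeR), and with 1 library left out it lay between -0.32 (without kinsenoside replicate 1) and -0.05 (without PAC-CM replicate 3). Since 90.5% of its windows are also in Lilrb4a, the division of counts between the entries is uncertain. With Lilr4b, Gm49339 and Lilrb4a summed, the log2 fold change was 0.02 (SE 0.0791, adjusted p 0.930).

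SIRPα binds CD47, the "do not eat me" signal of healthy cells, and CD200R1 binds CD200. Sirpa (ENSMUSG00000037902, GRCm38 chr2:129592835-129632228, plus strand) was at 881, 859 and 793 CPM in PAC-CM and at 802, 784 and 666 CPM with kinsenoside. The kinsenoside values were mostly lower, but the highest of them lay above the lowest PAC-CM value. Its log2 fold change was -0.13 (SE 0.0823, adjusted p 0.524 in edgeR), and -0.05 without kinsenoside replicate 3. Cd47 was at 497, 501 and 527 CPM in PAC-CM and at 436, 457 and 491 CPM with kinsenoside. All kinsenoside values were lower in CPM, as for 15.7% of tested genes, but the groups overlapped after scaling with the TMM factors. Its log2 fold change was -0.10, with an adjusted p of 0.553 in edgeR. The log2 ratio of Sirpa to Cd47 differed by -0.03, with an exact permutation p of 0.90. Sirpa shares 0% of its 150-base windows with another gene.

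Cd200r1 (ENSMUSG00000022667, GRCm38 chr16:44765736-44794978, plus strand) was at 89.2, 105 and 121 CPM in PAC-CM and at 120, 131 and 111 CPM with kinsenoside. The groups overlapped, with PAC-CM replicate 1 the lowest library. Its log2 fold change was 0.24 (SE 0.113, interval -0.018 to 0.50), with an adjusted p of 0.366 in edgeR, and it was 0.14 without PAC-CM replicate 1. The ligand gene Cd200 had a log2 fold change of -0.22 (adjusted p 0.390), and the log2 ratio of Cd200r1 to Cd200 was higher in all kinsenoside libraries, by 0.47 on average. That ratio was -1.12, -0.48 and -0.42 in PAC-CM and -0.15, -0.24 and -0.24 with kinsenoside, with an exact permutation p of 0.10 (0.20 adjusted over the 8 ratios). Without PAC-CM replicate 1, where Cd200 was highest and Cd200r1 lowest, the ratio differed by 0.24 and the log2 fold change of Cd200 was -0.10. The ratio of Cd200r1 to its activating relative Cd200r4 differed by 0.10 on the log2 scale, with an exact permutation p of 0.70.

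Clec12a (ENSMUSG00000053063, GRCm38 chr6:129342691-129365303, plus strand) encodes an ITIM-bearing lectin receptor that senses uric acid crystals from dead cells. It was at 128, 144 and 168 CPM in PAC-CM and at 124, 138 and 137 CPM with kinsenoside. The groups overlapped, with a log2 fold change of -0.10 (standard error 0.102, adjusted p 0.711 in edgeR) and a fold interval of 0.795 to 1.10.

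**Figure D4:**
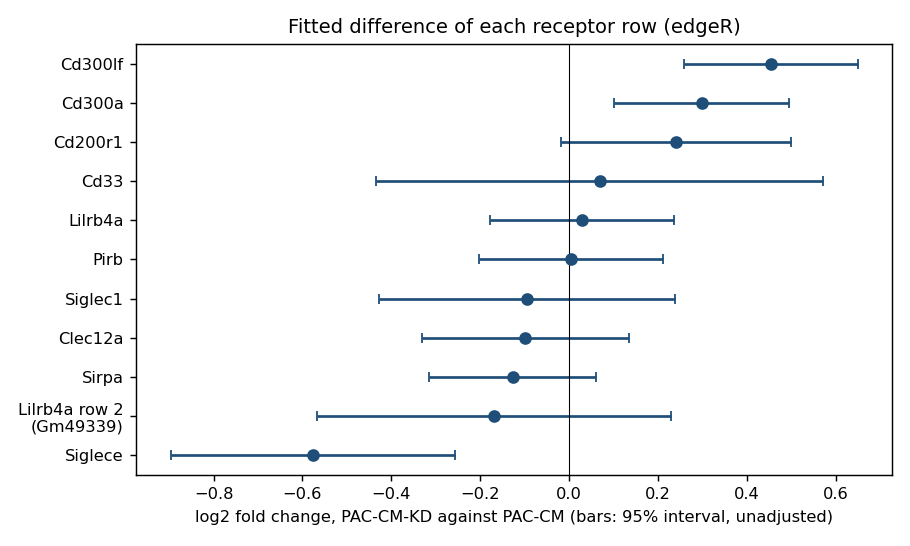
Fitted log2 fold change of each entry, kinsenoside against PAC-CM (points), with unadjusted 95% intervals (bars). The intervals of Cd300lf, Cd300a and Siglece do not include 0, and those of the other 8 entries do.

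None of the 3 phosphatases that the tails recruit passed the threshold. Ptpn6 had a log2 fold change of 0.06 (adjusted p 0.686), Ptpn11 of 0.07 (adjusted p 0.660) and Inpp5d of -0.09 (adjusted p 0.628) in edgeR. Of the 24 tail effectors and feedback proteins listed, 23 were tested and 0 passed the threshold. At an unadjusted p under 0.05 there were 1 higher and 3 lower, or 17.4%, beside 14.9% of all tested genes, and the list's median log2 fold change was 0.0024. Among the lower ones were Socs3, a feedback inhibitor of cytokine receptors (log2 fold change -0.56, adjusted p 0.185), and the kinase gene Ptk2b (-0.16, 0.303), and the higher one was Cish, a relative of Socs3 (0.50, 0.221, and 0.30 without kinsenoside replicate 1). Socs3 was at 769, 778 and 609 CPM in PAC-CM and at 580, 430 and 406 CPM with kinsenoside, without overlap. It passed the threshold in DESeq2 and in edgeR without kinsenoside replicate 1.

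The activating side of the pathway was read from the list of signals that these receptors hold in check, of which 17 of 18 were tested and 0 passed. At an unadjusted p under 0.05 there were 2 higher and 3 lower, or 29.4%, beside 14.9% of all tested genes, with a list median of -0.03. Tyrobp, the adaptor DAP12 of activating myeloid receptors, was at 425, 441 and 416 CPM in PAC-CM and at 514, 475 and 513 CPM with kinsenoside. All kinsenoside libraries were higher, with a log2 fold change of 0.27 (SE 0.0631) and an adjusted p of 0.11 in edgeR, and DESeq2 called it. The adaptor gene Fcer1g was higher in the same way (0.15, adjusted p 0.311). Lower were Pik3cg, a phosphoinositide kinase subunit (-0.27, 0.147), the transcription factor gene Nfatc1 (-0.40, 0.159) and Malt1, a protease of the NF-kappa B pathway (-0.96, 0.243). Groups did not overlap in CPM for these 5 of the 17 tested genes, or 29.4%, beside 22.5% of all tested genes. Since the 5 were picked by p in the same libraries, their separation is no further support.

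Among 33 activating or paired counterparts of the receptors, 24 were in the table and 19 were tested, and 0 passed in edgeR. The list median was 0.07, and at an unadjusted p under 0.05 there were 4, or 21.1%, beside 14.9% of all tested genes (8.19% lower), all with lower means under kinsenoside: Cd300e and Cd300c2 above, and Pilrb1 (log2 fold change -0.36, adjusted p 0.162) and Pilrb2 (-0.30, 0.183), activating partners of Pilra. Of 25 other inhibitory receptors 17 were tested and 0 passed, with a median of -0.0098 and 4, or 23.5%, at an unadjusted p under 0.05, beside the same 14.9%. Lair1, an ITIM receptor for collagen, was at 22.4, 21.2 and 22.8 CPM in PAC-CM and at 17.2, 18.2 and 16.2 CPM with kinsenoside, all lower, with a log2 fold change of -0.32 and an adjusted p of 0.129 in edgeR. Pilra, the inhibitory partner of the Pilrb genes, had -0.32 (adjusted p 0.175). The adhesion receptor gene Pecam1 had 0.60 (0.225), and the allergin gene Milr1 had 0.17 (0.310). The IgG receptor gene Fcgr2b was among those with overlapping groups (0.03, 0.854).

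Of 23 ligands and ligand partners 16 were tested and 0 passed, with a median of -0.03 and 2, or 12.5%, at an unadjusted p under 0.05, against 14.9% of all tested genes. Cd24a, a ligand for sialic acid receptors, was at 252, 206 and 199 CPM in PAC-CM and at 167, 174 and 138 CPM with kinsenoside, without overlap (log2 fold change -0.41, adjusted p 0.156 in edgeR). Thbs1, whose product thrombospondin binds CD47, was at 814, 1245 and 1118 CPM and at 1946, 1367 and 1539 CPM with kinsenoside, all higher (0.66, 0.221). DESeq2 called both. The third by p was Cd200, given above.

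**Figure D5:**
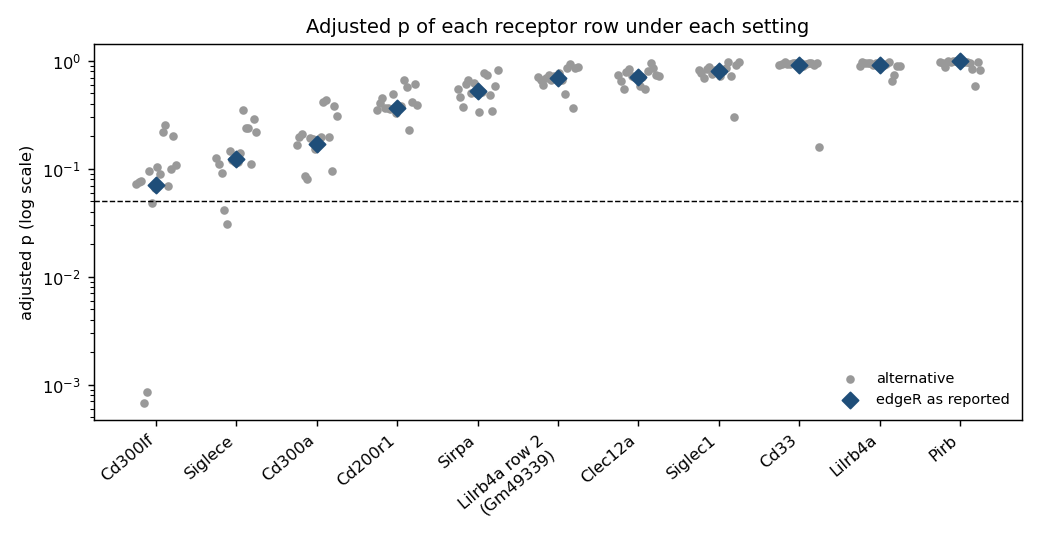
Adjusted p of each entry (log axis) in edgeR as reported (blue diamonds) and under each alternative test, scaling, filter or left-out library (grey points), with the threshold of 0.05 dashed. Cd300lf falls under the line in DESeq2, with and without the edgeR filter, and in edgeR without a filter, Siglece in both DESeq2 settings, and no other entry does.

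For the 3 members with the largest SD of log2 CPM over the 6 libraries, the genes of most similar pattern were sought among 8715 genes whose mean reached 5 CPM or more. These correlations are over 6 libraries that share the groups and are given as a description. Siglece was closest to Slc31a2 (Pearson r 0.989, Spearman rho 1.00) and Stub1 (0.988, 0.943), and 25 genes had an r of at least 0.95. Cd33 was closest to Rsu1 (0.987, 0.886) and Ube2q2 (0.986, 1.00), with 17 such genes. Cd300lf was closest to Ttc39b (0.994, 0.943) and Ddx23 (0.993, 0.943), with 64 such genes.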

How the data were processed

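The table the authors deposited holds whole-number counts of 55335 Ensembl identifiers in 6 libraries. STAR, StringTie 1.3.1c, DESeq2 1.16.1, bcl2fastq 2.20, FastQC 0.11.2 and the build GRCm38 are listed in the submitters' processing notes without role or order. The counting tool and its strand setting are not given in the sources used here.

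Counts were tested as deposited with edgeR 4.0.16 (R 4.3.3, limma 3.58.1): filterByExpr, TMM, robust quasi-likelihood fits on the group, two-sided, with p-values adjusted over 13901 genes by Benjamini-Hochberg at a threshold of 0.05. CPM use the library total, and log2 CPM a prior count of 2. Positions, lengths and shared windows come from GENCODE M21, which holds 55154 of the identifiers. The script was tested on simulated counts of this comparison over 13687 genes: of 67 genes altered 1.5-fold 21 were found, of 67 altered 2-fold 51, and of 66 altered 4-fold 60, while 14 of the 146 genes called had not been altered.

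The members, gene lists and ratios were chosen with earlier results of these data known. Named genes were the members, the 3 smallest p-values of each list, Cd47, Cd200, Ptpn6, Ptpn11, Inpp5d and the closest patterns. A gene that this rule names is not reported here. Lilr4b, Pira2, Spi1, Milr1, Fcgr2b, Ptk2b, Fcer1g, Malt1 and other cluster genes were added as partners or to complete a count. The sum over the paired receptor cluster and DESeq2 on the genes of the edgeR filter were chosen after seeing the data. Alternatives were DESeq2 1.42.0, limma-voom, 3 other scalings, 2 other filters, a replicate block, non-robust estimates, a threshold of 0.01, sums with near-identical genes and leaving out each library.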

Additional observations from a re-analysis of the deposited data

How the results depend on the processing

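No member was called in edgeR with all libraries and the low-count filter, and none in any fit that left out 1 library. DESeq2 called 2 in either setting. EdgeR without the filter called 1 member, Cd300lf, and 105 of 23425 genes. Over all genes the 71 calls became 441 in DESeq2 with its own filter in place of edgeR's, 490 in DESeq2 on the genes of the edgeR filter, 39 in limma-voom, 36 with non-robust estimates, 11 at a threshold of 0.01, and between 13 (PAC-CM replicate 1 left out) and 98 (kinsenoside replicate 1 left out) when libraries were left out singly. Library total scaling changed the split from 29 higher and 42 lower to 25 and 63. In both DESeq2 settings the calls were 1 among tail effectors, 2 among ligands and 1 among signals held in check. In the same order these lists had 23, 16 and 17 genes tested in edgeR. The calls were 0 among the activating or paired counterparts and the other inhibitory receptors. Over all genes with an adjusted p, DESeq2 called 3.8% with its own filter and 3.6% on the genes of the edgeR filter. Leaving out 1 library gave between 0 and 1 call among tail effectors. The log2 fold change of Pirb was -0.014 with upper quartile and -0.040 with library total scaling, and between -0.064 and 0.090 with 1 library left out. That of Lilrb4a was -0.014 with library total scaling and between -0.042 and 0.11 with 1 library left out. The same ranges were -0.19 to 0.014 for Clec12a, -0.25 to 0.014 for Siglec1 and -0.066 to 0.28 for Cd33. Cd300lf, Cd300a, Siglece, Sirpa, Cd200r1 and Gm49339 kept their direction in every alternative.

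With the replicate number as a block 42 genes and 0 members were called, and Cd300lf had a log2 fold change of 0.46 (adjusted p 0.105 in edgeR). Same-numbered libraries deviated from their group means with correlations of 0.0087, -0.10 and 0.13 across genes, and not every library correlated best with its own number, so the numbers are not taken to pair the samples.

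With 179 to 348 counts per library, Siglece has the least depth of the members.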
